A study of Homo sapiens with 12 samples.

Results

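A group of 10 genes for enzymes that reduce carbonyls or open reactive epoxides and alkenals were followed through the mRNA-seq data of MOLM-13 and THP-1 cells. They were AKR1A1, AKR1B1, AKR1B10, AKR1C1, AKR1C2, AKR1C3, CBR1, CBR3, EPHX1 and PTGR1. The members were taken by gene symbol, and all 10 were found among the 20030 genes of the table. Both lines come from acute myeloid leukemia with an MLL rearrangement. MOLM-13 also carries FLT3/ITD and THP-1 has wild-type FLT3. Each line was grown for 48 h with DMSO as control or with JOA (Jiyuan oridonin A, an ent-kaurene diterpenoid), at 0.5 μM in MOLM-13 cells and 2 μM in THP-1 cells, with 3 libraries for each of the 4 groups. Cell line and dose therefore differ together and cannot be told apart. The time of 48 h is from the labels and methods, while a figure legend of the paper for these data gives a longer time. The labels do not state that the libraries of a group came from separate cultures, so p-values measure only the spread between these libraries.

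Aldo-keto reductases are cytosolic enzymes that use NADPH to turn aldehydes and ketones into alcohols. AKR1A1 and AKR1B1 are broadly expressed aldehyde reductases, AKR1B10 is a close relative of AKR1B1 that reduces retinal and other aldehydes, and AKR1C1, AKR1C2 and AKR1C3 act on steroids, prostaglandins and products of lipid oxidation. CBR1 and CBR3 belong to the unrelated short-chain dehydrogenase family, and CBR1 also reduces anthracyclines used in leukemia therapy. EPHX1 is the microsomal epoxide hydrolase, and PTGR1 reduces the double bond of alkenals and of oxidized prostaglandins and leukotrienes. Several of these genes are known targets of NRF2 (NFE2L2), the transcription factor that is released from KEAP1 when electrophiles modify it.

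The deposited values were FPKM, which scale the fragments of a gene to its transcript length and to all mapped fragments of the library. Within each line the log2 values of the libraries correlated with one another across genes with r between 0.987 and 0.995, and total depth is unknown because the table gives no counts. All 10 myeloid and monocytic markers examined, among them PTPRC, CD33 and SPI1, had a mean of at least 1 FPKM in each of the 4 groups, and so did HOXA9, HOXA10 and MEIS1. The erythroid markers HBB and ALAS2 were listed at 0 in every library. The summed level of the epithelial markers EPCAM, CDH1 and KRT5 was at most 0.113 FPKM in any library, and that of the hepatocyte markers ALB, APOA1 and TTR was at most 0.219 FPKM. Of the B cell markers, the sum was at most 1.08 FPKM. The T cell marker CD3D, however, was present at 1.53, 3.79 and 3.18 FPKM in MOLM-13 control cells and was listed at 0 in all THP-1 libraries, while CD3E and CD3G had means under 0.1 FPKM in every group. Its part in the differences between the lines was not tested.

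The genes lie on GRCh38, by the GENCODE release 29 annotation, in several clusters of paralogs. AKR1C1 (chr10:4963253-4983283, plus strand), AKR1C2 (chr10:4987400-5018031, minus strand) and AKR1C3 (chr10:5035354-5107686, plus strand) are neighbors, as are AKR1B1 (chr7:134442350-134459284, minus strand) and AKR1B10 (chr7:134527592-134541408, plus strand). CBR1 (chr21:36069941-36073166) and CBR3 (chr21:36134912-36146566) lie on the plus strand of the same chromosome. AKR1A1 (chr1:45550543-45570049, plus strand), EPHX1 (chr1:225810092-225845563, plus strand) and PTGR1 (chr9:111549722-111599893, minus strand) stand alone. The paralogs differ in how well short reads can separate them. AKR1C1 and AKR1C2 differ at 19 of 969 aligned coding bases (98.0% identity), and 38 of the 820 windows of 150 bases in the AKR1C1 coding sequence, one read length, occur unchanged in AKR1C2. AKR1C1 and AKR1C3 are 91.4% identical and share 0 such windows, while AKR1C2 shares 22 with AKR1C3. AKR1B1 and AKR1B10 are 75.8% identical, CBR1 and CBR3 are 77.0% identical, and neither pair shares a window. How the authors assigned reads that match both AKR1C1 and AKR1C2 is not given in the sources used here, so the split between these 2 genes is uncertain.

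The coding stretch of 90 bases in which AKR1C1 and AKR1C2 differ most is shown as an example of where reads can tell these genes apart. It covers coding bases 73 to 162 and crosses from exon 1 into exon 2, so that the genomic span (chr10:4963517-4965991 on the plus strand for AKR1C1, chr10:5001604-5003763 on the minus strand for AKR1C2) includes the first intron. Capitals mark the 10 bases that differ.
AKR1C1: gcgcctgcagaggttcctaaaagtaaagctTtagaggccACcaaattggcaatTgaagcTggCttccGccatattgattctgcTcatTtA
AKR1C2: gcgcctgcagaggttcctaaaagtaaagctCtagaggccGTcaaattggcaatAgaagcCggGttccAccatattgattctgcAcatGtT

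Promoter windows, from 250 bases before to 50 bases after each annotated start (RefSeq, GRCh38.p14), were found for 8 of the 10 genes, in 12 windows. The windows of AKR1C1 (chr10:4963165-4963464, plus strand) and AKR1C2 (chr10:5003808-5004107, minus strand) are shown because AKR1C1 and AKR1C2 are compared throughout. They are identical at 288 of 292 aligned bases, and capitals mark bases that differ or have no partner.
AKR1C1: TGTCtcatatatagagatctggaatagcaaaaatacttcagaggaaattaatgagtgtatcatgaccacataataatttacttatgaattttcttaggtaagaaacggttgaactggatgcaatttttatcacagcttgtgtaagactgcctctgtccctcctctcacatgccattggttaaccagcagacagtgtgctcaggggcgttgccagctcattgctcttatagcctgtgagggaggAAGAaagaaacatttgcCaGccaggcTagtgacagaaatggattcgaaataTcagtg
AKR1C2: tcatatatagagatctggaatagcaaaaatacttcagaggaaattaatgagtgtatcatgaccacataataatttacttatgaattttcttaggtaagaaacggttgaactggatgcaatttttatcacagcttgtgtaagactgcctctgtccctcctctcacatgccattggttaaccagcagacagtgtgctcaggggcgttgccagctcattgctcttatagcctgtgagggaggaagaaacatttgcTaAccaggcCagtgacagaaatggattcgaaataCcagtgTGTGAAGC

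Each window was searched on both strands for TGACNNNGC, the core of the antioxidant response element, which NRF2 binds together with small MAF proteins. Of all 35116 windows of this length, 13.3% held it. Of the 12 windows of the 8 genes, 2 held it, in CBR1 and EPHX1, and these windows are shown with the match in capitals. In CBR1 (chr21:36069774-36070073, plus strand) the match reads on the opposite strand of the gene and begins 159 bases before the start. In EPHX1 it reads on the strand of the gene and begins 78 bases before the third annotated start (chr1:225825104-225825403, plus strand), and the windows at the other two starts held none. A match describes letters and is not evidence of binding.
CBR1: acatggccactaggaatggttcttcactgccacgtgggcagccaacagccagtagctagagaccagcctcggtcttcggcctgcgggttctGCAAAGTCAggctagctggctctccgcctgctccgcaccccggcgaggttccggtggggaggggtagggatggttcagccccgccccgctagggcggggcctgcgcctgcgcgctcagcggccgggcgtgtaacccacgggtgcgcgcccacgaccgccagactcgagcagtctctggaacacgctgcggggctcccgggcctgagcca
EPHX1: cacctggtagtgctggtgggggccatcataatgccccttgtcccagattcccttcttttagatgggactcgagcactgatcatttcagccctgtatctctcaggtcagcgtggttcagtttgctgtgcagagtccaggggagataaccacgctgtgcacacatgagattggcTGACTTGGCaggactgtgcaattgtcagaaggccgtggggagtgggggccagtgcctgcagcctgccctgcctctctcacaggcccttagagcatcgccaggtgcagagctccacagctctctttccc

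The 2 lines differed in most of these enzymes without JOA. Of the 9 members tested, 6 were higher in control THP-1 cells than in control MOLM-13 cells (AKR1C1, CBR3, PTGR1, EPHX1, AKR1B1 and AKR1C2), and CBR1 was lower. A call here and below needed an adjusted p under 0.05 by limma (Benjamini-Hochberg over all genes tested) together with a log2 fold change of 0.58 or more in size, on values of log2(FPKM + 0.1). The lines differed broadly, since 44.0% of 12635 genes were called, 25.0% higher and 19.0% lower in THP-1 cells, and the counts of members stand beside that background. The libraries of the lines did not overlap for 8 of the 9 members, where 74.8% of all genes did not. AKR1B10 had a mean under 0.1 FPKM over these libraries and was not among the genes tested.

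**Figure D1:**
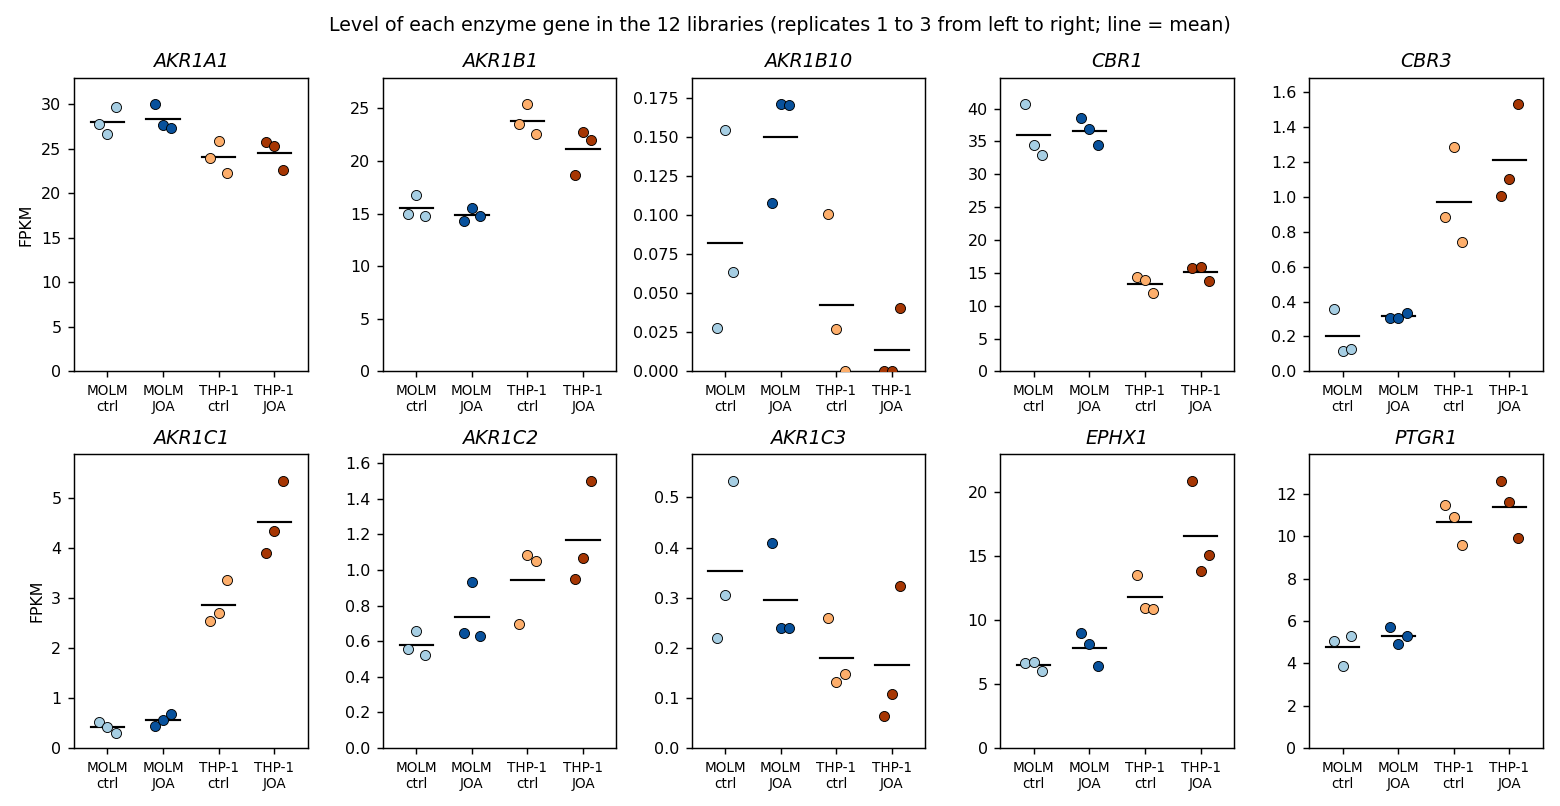
FPKM (y axis, linear from 0, a scale of its own in each panel) of the 10 enzyme genes in each of the 12 libraries, with points for replicates 1 to 3 of MOLM-13 control, MOLM-13 JOA, THP-1 control and THP-1 JOA cells and a line at each group's mean. CBR1 is highest in MOLM-13 cells, AKR1C1, CBR3, EPHX1 and PTGR1 are higher in THP-1 cells, and AKR1C1 and EPHX1 of JOA-treated THP-1 cells lie above their controls.

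Of the 9 members tested, AKR1C1 had the largest difference between the lines. Its level was 0.525, 0.418 and 0.304 FPKM in the MOLM-13 control libraries and 2.54, 2.69 and 3.36 FPKM in those of THP-1. The lowest THP-1 value lay above the highest MOLM-13 value, and the log2 fold change was 2.54 (SE 0.19, adjusted p = 6.3e-06 by limma). AKR1C2, its nearest paralog, had 0.558, 0.660 and 0.523 FPKM in MOLM-13 and 0.694, 1.08 and 1.05 FPKM in THP-1 control cells, a log2 fold change of 0.60 (SE 0.18, adjusted p = 0.0185 by limma) just over the fold threshold. This call was lost when any of 4 control libraries was left out, where its log2 fold change was 0.58 (without MOLM-13 replicate 1), 0.54 (without MOLM-13 replicate 3), 0.49 (without THP-1 replicate 2) and 0.52 (without THP-1 replicate 3). The ratio of AKR1C1 to AKR1C2 was between 0.581 and 0.941 in MOLM-13 control libraries and between 2.49 and 3.66 in THP-1 control libraries.

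AKR1C3, known for making testosterone and prostaglandin F, did not pass the test and had a log2 fold change of the opposite sign. It had 0.219, 0.306 and 0.533 FPKM in MOLM-13 and 0.260, 0.131 and 0.148 FPKM in THP-1 control cells, with overlapping groups and a log2 fold change of -0.66 (SE 0.29, adjusted p = 0.0676 by limma). Leaving out MOLM-13 replicate 1 brought it to -0.88 (adjusted p = 0.0262), and leaving out THP-1 replicate 1 to -0.86 (adjusted p = 0.0358). Summed over AKR1C1, AKR1C2 and AKR1C3, whose FPKM are each divided by the gene's own length, so that the sum still depends on how shared reads were split, the control level was 1.35 ± 0.0422 FPKM in MOLM-13 and 3.99 ± 0.534 FPKM in THP-1 cells (SD, n = 3). The log2 fold change of this sum was 1.49 (SE 0.12, adjusted p = 9.0e-06 by limma).

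AKR1B1, the aldose reductase of the polyol pathway, had 15.0, 16.8 and 14.8 FPKM in MOLM-13 and 23.5, 25.4 and 22.6 FPKM in THP-1 control cells. The groups did not overlap, and the log2 fold change was 0.62 (SE 0.07, adjusted p = 0.00012 by limma). Without THP-1 replicate 2 it was 0.57, under the fold threshold. AKR1A1 ran from 26.6 to 29.7 FPKM in MOLM-13 and from 22.3 to 25.9 FPKM in THP-1 control cells. Its log2 fold change of -0.22 (SE 0.07, adjusted p = 0.0257 by limma) was too small for a call. AKR1B10 was at the edge of detection, at 0.0280, 0.154 and 0.0634 FPKM in MOLM-13 control cells and at 0.101 and 0.0269 FPKM in THP-1 control replicates 1 and 2. It was listed at 0 in THP-1 control replicate 3.

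The carbonyl reductases differed in opposite directions between the lines. CBR1 had 40.6, 34.4 and 32.9 FPKM in MOLM-13 control cells and 14.3, 13.9 and 11.9 FPKM in THP-1 control cells. The log2 fold change was -1.42 (SE 0.10, adjusted p = 5.4e-06 by limma). CBR3 had 0.357, 0.119 and 0.127 FPKM in MOLM-13 and 0.882, 1.29 and 0.743 FPKM in THP-1 control cells, a log2 fold change of 1.88 (SE 0.31, adjusted p = 0.00078 by limma). Even so, CBR1 stayed at 10.8 to 16.3 times the level of CBR3 in the THP-1 control libraries, against 114 to 288 times in those of MOLM-13. CBR1 overlaps SETD4 on the opposite strand, and whether strand was used in counting is not given in the sources used here. SETD4 was lower in THP-1 cells too, by -0.48 on the log2 scale (adjusted p = 0.0018, limma), and its part in the CBR1 difference was not tested.

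EPHX1 and PTGR1 were both higher in THP-1 control cells. EPHX1 had 6.64, 6.70 and 6.02 FPKM in MOLM-13 and 13.5, 10.9 and 10.8 FPKM in THP-1 cells, with a log2 fold change of 0.85 (SE 0.10, adjusted p = 0.00010 by limma). PTGR1 had 5.07, 3.90 and 5.30 FPKM in MOLM-13 and 11.5, 10.9 and 9.58 FPKM in THP-1 cells, with a log2 fold change of 1.16 (SE 0.13, adjusted p = 6.7e-05 by limma). Neither gene overlapped between the lines. TMEM63A, which overlaps EPHX1 on the opposite strand, was also higher in THP-1 cells (log2 fold change 0.42, adjusted p = 0.0112 by limma), below the fold threshold. ZNF483, opposite PTGR1, was below the filter on low values.

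**Figure D2:**
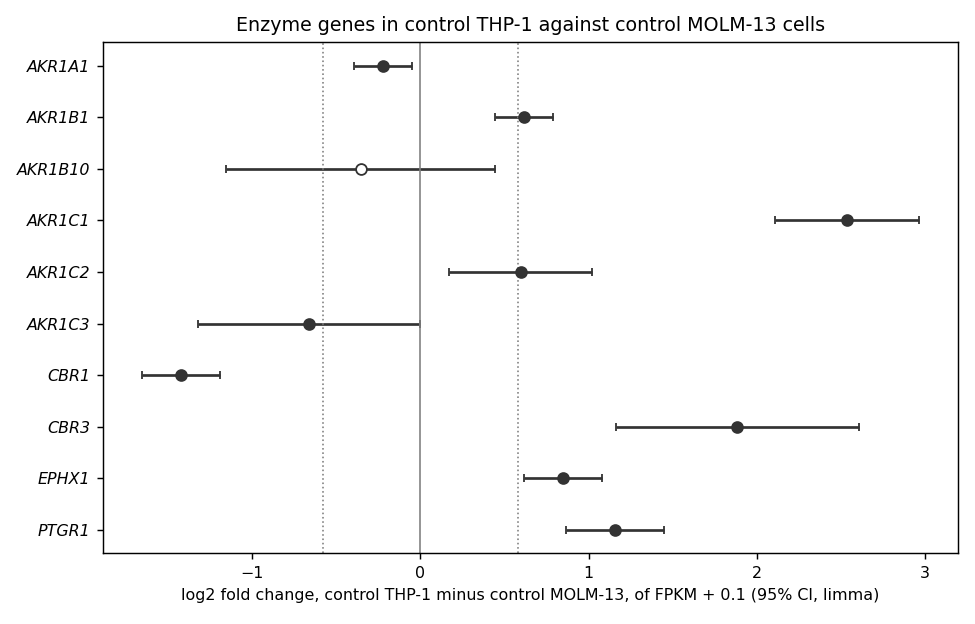
Log2 fold change of FPKM + 0.1 (x axis, control THP-1 minus control MOLM-13) of each enzyme gene (y axis), with 95% confidence intervals by limma over 3 libraries per line. Dotted lines mark the fold threshold of 0.58 in either direction, the open point is AKR1B10 from a fit without a filter on low values, and AKR1C1 (2.54) and CBR1 (-1.42) lie at the ends.

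The order of the members by mean FPKM, a scale per length, differed accordingly. In MOLM-13 control cells it ran CBR1, AKR1A1, AKR1B1, EPHX1 and PTGR1, and the ranges of neighbors in this order did not overlap. The other 5 genes followed under 0.7 FPKM, and among them each overlapped the next. In THP-1 control cells AKR1A1 and AKR1B1 came first and overlapped each other, and CBR1, EPHX1 and PTGR1 came next and overlapped as well. AKR1C1 stood alone below them, followed by CBR3 and AKR1C2, which overlapped, then AKR1C3 and AKR1B10. CBR1 made up 38.9% ± 2.84 (SD, n = 3) of the summed FPKM of the 10 genes in MOLM-13 control cells and 15.1% ± 0.636 in THP-1 control cells. EPHX1, PTGR1 and AKR1B1 took larger shares in THP-1 control cells, at 13.3% ± 1.49, 12.0% ± 0.493 and 26.9% ± 1.00. The summed FPKM itself was 92.3 ± 3.83 in MOLM-13 and 88.7 ± 5.34 in THP-1 control cells, with overlapping libraries.

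In THP-1 cells, 4 members (AKR1C1, EPHX1, CBR1 and PTGR1) were higher with JOA in every replicate pair and 1 (AKR1B1) was lower. None of them passed the call without pairing. The share of all genes with the same sign in every pair was not computed for either line. With the replicate number as a block, AKR1C1 was called. Of the 9 members tested, 0 were called by limma without the block (0.134% of 12712 genes were). Of them, 2 had an unadjusted p under 0.05 (AKR1C1 and EPHX1, against 16.9% of all genes), and 7 had a positive log2 fold change (56.7% of all genes). JOA and control libraries did not overlap for 2 of the 9, both higher with JOA, where 23.4% of all genes did not overlap, 14.6% higher and 8.81% lower. These shares are not far from those of all genes, and the median log2 fold change of the 9 was 0.17 against 0.02 for all genes. With the block, 1 of the 9 was called (1.27% of all genes), and 4 had an unadjusted p under 0.05 (26.0% of all genes).

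AKR1C1, which inactivates progesterone and reduces alkenals from lipid oxidation, went from 2.54, 2.69 and 3.36 FPKM in control replicates 1 to 3 to 3.89, 4.33 and 5.33 FPKM with JOA. The highest control library lay below the lowest JOA library. The log2 fold change was 0.64 (SE 0.14, 95% CI 0.31 to 0.97, adjusted p = 0.0902 by limma). Within the pairs of the same number it was 0.59, 0.67 and 0.65, and with the replicate block the adjusted p was 0.00714 by limma. With each pair left out in turn under the block, an alternative chosen after seeing the data, the log2 fold change was between 0.62 and 0.66, with an adjusted p of at most 0.00831.

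The neighboring genes of the cluster overlapped between JOA and control. AKR1C2 had 0.694, 1.08 and 1.05 FPKM in control and 0.946, 1.07 and 1.50 FPKM in JOA libraries, a log2 fold change of 0.28 (SE 0.21, adjusted p = 0.546 by limma). The AKR1C1 to AKR1C2 ratio was 3.56 to 4.11 in the JOA libraries, overlapping with the controls. AKR1C3 had 0.260, 0.131 and 0.148 FPKM in control and 0.0640, 0.108 and 0.323 FPKM in JOA libraries, a log2 fold change of -0.17 with a wide interval (95% CI -1.03 to 0.68). The sum of AKR1C1, AKR1C2 and AKR1C3 went from 3.50, 3.91 and 4.55 to 4.90, 5.51 and 7.15 FPKM without overlap. Its log2 fold change was 0.53 (SE 0.15, adjusted p = 0.139 by limma, 0.00874 with the block), under the fold threshold.

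EPHX1, which hydrolyzes epoxides of drugs and polycyclic hydrocarbons, went from 13.5, 10.9 and 10.8 FPKM to 20.8, 13.8 and 15.1 FPKM in THP-1 cells. Replicate 1 was the highest in both groups. The log2 fold change was 0.47 (SE 0.15, 95% CI 0.12 to 0.83, adjusted p = 0.185 by limma) and was positive in 3 of 3 pairs, at 0.62, 0.33 and 0.47. With the replicate block the adjusted p was 0.0101 by limma, with the fold under the threshold. The overlapping TMEM63A had a log2 fold change of 0.20 in the same libraries (adjusted p = 0.389 by limma, 0.275 under the block). The groups of TMEM63A did not overlap either, and its part in the EPHX1 values was not tested.

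The more abundant members had small log2 fold changes with JOA in THP-1 cells. CBR1 had 14.3, 13.9 and 11.9 FPKM in control and 15.7, 15.9 and 13.7 FPKM in JOA libraries, overlapping only through the JOA replicate 3. Its log2 fold change was 0.17 (SE 0.09, adjusted p = 0.366 by limma, 0.0600 under the block). It was positive in 3 of 3 pairs. PTGR1 had 11.5, 10.9 and 9.58 FPKM against 12.6, 11.6 and 9.95 FPKM, a log2 fold change of 0.09 (SE 0.10), also positive in 3 of 3 pairs. AKR1B1 was the one member lower in all 3 pairs, with 23.5, 25.4 and 22.6 FPKM in control and 18.6, 22.8 and 22.0 FPKM in JOA libraries. Its log2 fold change was -0.17 (SE 0.08, adjusted p = 0.344 by limma, 0.125 with the block). For AKR1A1 the log2 fold change was 0.03 (95% CI -0.14 to 0.20), so that a change by the threshold of 0.58 lay outside the interval, as it did for AKR1B1, CBR1 and PTGR1.

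CBR3 and AKR1B10 were measured less precisely. CBR3 had 0.882, 1.29 and 0.743 FPKM in control and 1.00, 1.10 and 1.53 FPKM in JOA libraries, a log2 fold change of 0.31 (95% CI -0.20 to 0.81, adjusted p = 0.527 by limma). AKR1B10 was listed at 0 in JOA replicates 1 and 2 and was 0.0407 FPKM in replicate 3. No direction can be read for AKR1B10 at this level.

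In MOLM-13 cells at the lower dose, none of the 10 members passed. Among 11693 genes tested, 0 genes (0%) were called by limma, while 481 (4.11%) had an unadjusted p under 0.05. Of the members, 0 had an unadjusted p under 0.05 and 0 had JOA and control groups without overlap, against 9.65% of all genes in either direction. AKR1B10 passed the filter only through its JOA libraries and is counted here among the positive members. The log2 fold changes of the members were positive for 8 of 10 (52.4% of all genes), with a median of 0.21 against 0.01 for all genes. The adjusted p was 1.00 for each of them, and with the block it was 0.353 or higher.

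EPHX1 came nearest. It went from 6.64, 6.70 and 6.02 FPKM to 9.00, 8.10 and 6.44 FPKM, overlapping through JOA replicate 3, and was higher in 3 of 3 pairs. The log2 fold change was 0.27 (SE 0.12, 95% CI -0.01 to 0.54, unadjusted p = 0.0559 by limma). With the block the unadjusted p was 0.00807 (11.1% of all genes were under 0.05) and the adjusted p was 0.353 by limma. TMEM63A had a log2 fold change of 0.15 there.

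AKR1C1 had 0.433, 0.557 and 0.674 FPKM in the JOA libraries of MOLM-13, against 0.525, 0.418 and 0.304 FPKM in control. The change within pairs ran from -0.23 in replicate 1 to 0.94 in replicate 3, and the log2 fold change was 0.35 (SE 0.22, 95% CI -0.15 to 0.85). AKR1C2 was higher in 3 of 3 pairs, with 0.647, 0.932 and 0.631 FPKM against 0.558, 0.660 and 0.523 FPKM and a log2 fold change of 0.29 (SE 0.18). AKR1C3 had 0.409, 0.240 and 0.240 FPKM with JOA and a log2 fold change of -0.16 (SE 0.29). Only as a sum did the cluster separate the groups, at 1.30, 1.38 and 1.36 FPKM in control and 1.49, 1.73 and 1.54 FPKM with JOA. The log2 fold change of the sum was 0.22 (SE 0.10, adjusted p = 1.00 by limma, 0.455 with the block).

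The abundant reductases of MOLM-13 cells had log2 fold changes near 0. CBR1 had 38.6, 36.8 and 34.5 FPKM with JOA (log2 fold change 0.03, 95% CI -0.17 to 0.23). AKR1A1 had 30.0, 27.7 and 27.3 FPKM (0.02, 95% CI -0.14 to 0.17), and AKR1B1 had 14.3, 15.5 and 14.8 FPKM (-0.06, 95% CI -0.22 to 0.11). For these 3 genes and for PTGR1, at 5.71, 4.91 and 5.29 FPKM (0.16, 95% CI -0.12 to 0.44), the interval left out a change as large as the threshold.

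CBR3, by contrast, had an interval that reached well past the threshold, with 0.308, 0.307 and 0.336 FPKM with JOA and a log2 fold change of 0.56 (95% CI -0.13 to 1.24). Its control libraries spread most, replicate 1 lying above all JOA libraries but the controls 2 and 3 at 0.119 and 0.127 FPKM. AKR1B10 had 0.107, 0.171 and 0.170 FPKM with JOA, higher in 3 of 3 pairs, and a log2 fold change of 0.50 (95% CI -0.22 to 1.22).

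**Figure D3:**
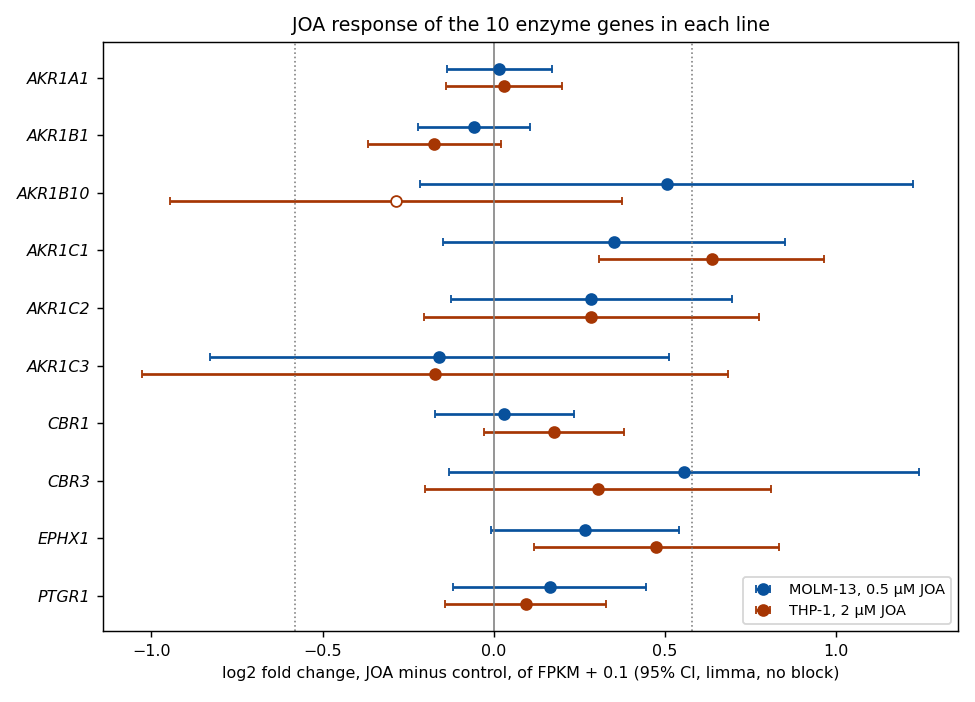
Log2 fold change of FPKM + 0.1 with JOA (x axis) of each enzyme gene (y axis) in MOLM-13 cells at 0.5 μM and THP-1 cells at 2 μM, with 95% confidence intervals by limma without the replicate block. Dotted lines mark a log2 fold change of 0.58 in either direction, the open point is AKR1B10 of THP-1 cells from a fit without a filter on low values, and the intervals of AKR1C1 and EPHX1 in THP-1 cells are the ones that leave out 0.

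**Figure D4:**
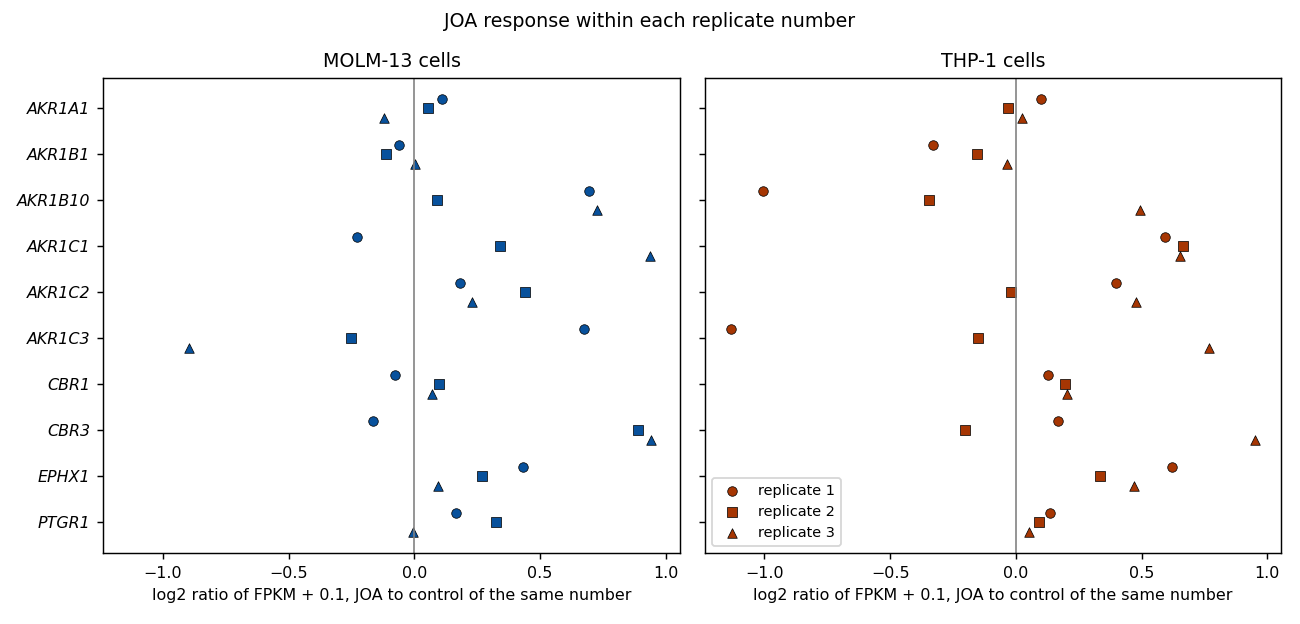
Log2 ratio of FPKM + 0.1 in each JOA library to the control library of the same replicate number (x axis) for each enzyme gene (y axis), MOLM-13 cells on the left and THP-1 cells on the right, with 1 symbol per replicate number. In THP-1 cells the 3 points of AKR1C1 lie together between 0.59 and 0.67, while those of AKR1C3, AKR1B10 and CBR3 fall on both sides of 0.

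The difference between the responses of the lines was tested directly. By limma, 0 of 12626 genes (0%) were called for the interaction of line and treatment, 914 had an unadjusted p under 0.05, and 6 (0.0475%) were called with the block. Of the 9 members tested, 0 were called with or without the block, and 0 had an unadjusted p under 0.05 (7.24% of all genes). For AKR1C1 the response in THP-1 minus that in MOLM-13 cells was 0.29 on the log2 scale (95% CI -0.30 to 0.87, adjusted p = 0.896 by limma), and for EPHX1 it was 0.21 (95% CI -0.27 to 0.68, adjusted p = 0.910 by limma). For the AKR1C sum it was 0.31 (SE 0.19, adjusted p = 0.776 by limma). Without the block, the intervals of AKR1C1 and EPHX1 include both 0 and a difference as large as their response in THP-1 cells. With the block, the SE was 0.26 for AKR1C1, 0.11 for EPHX1 and 0.10 for the sum. The unadjusted p by limma was then 0.299, 0.0802 and 0.0141, and the adjusted p was 0.653, 0.397 and 0.218. No difference passed, and the data do not show whether the lines responded alike.

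Other genes of the same pathways were examined in lists chosen by function, with earlier results of these data known. Of all genes in THP-1 cells, 16.9% had an unadjusted p under 0.05 with JOA by limma. Without overlap, 14.6% were higher and 8.81% lower. In MOLM-13 cells 4.11% had an unadjusted p under 0.05, and 9.65% did not overlap in either direction. The median log2 fold change of all genes was 0.02 in THP-1 and 0.01 in MOLM-13 cells. Of 10 other aldo-keto reductases, 6 passed the filter in THP-1 cells and 0 were called with JOA by limma. The 1 gene at an unadjusted p under 0.05 was KCNAB2, a subunit of potassium channels with an aldo-keto reductase fold. Its log2 fold change was 0.24 (adjusted p = 0.158 by limma, 0.0227 with the block), under the fold threshold. AKR7A2, an aflatoxin aldehyde reductase, had -0.07. The list had a median of 0.08, 1 gene higher without overlap and 0 lower. In MOLM-13 cells 5 were tested, with 0 called, 0 at an unadjusted p under 0.05, a median of 0.07 and 1 gene higher without overlap.

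Of 26 other short-chain dehydrogenases and reductases, 23 were tested in THP-1 cells and 0 were called by limma, with 4 at an unadjusted p under 0.05 and a median of -0.01. DHRS7, which reduces steroids and retinal, went from 2.58, 3.25 and 3.09 to 4.67, 4.42 and 4.08 FPKM. Its log2 fold change was 0.55 (adjusted p = 0.0755 by limma, 0.0234 with the block). DHRS7B, needed for ether lipid synthesis, had a log2 fold change of 0.47 (adjusted p = 0.168). HSD11B1, which regenerates cortisol from cortisone, went the other way, from 20.6, 21.2 and 20.0 to 12.0, 15.0 and 15.9 FPKM. Its log2 fold change was -0.53 (adjusted p = 0.0755 by limma, 0.0162 with the block). DHRS7, DHRS7B and HSD11B1 were all short of the fold threshold. With DHRS4L2 at -0.14, these were the 2 highest and the 2 lowest of the list. Without overlap, 4 were higher and 1 was lower. In MOLM-13 cells 23 were tested and 0 called, 1 gene having an unadjusted p under 0.05, with a median of 0.06, and 1 gene was higher and 1 lower without overlap.

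Of 14 other epoxide hydrolases, alkenal and quinone reductases, 13 were tested in THP-1 cells, 1 was called by limma, 2 were higher and 2 lower without overlap, and the median was 0.04. The called gene was VAT1L, a relative of quinone oxidoreductases, which fell from 3.33, 3.07 and 2.56 to 1.12, 1.38 and 1.19 FPKM (log2 fold change -1.21, SE 0.13, adjusted p = 0.0394 by limma). The call was lost without any 1 of the 6 THP-1 libraries, with a log2 fold change between -1.13 and -1.31 and an adjusted p of 0.0597 to 0.175 by limma. Over all genes, 0 to 1 were called in these fits, against 17 with all 6 libraries. With the block VAT1L was called as well (adjusted p = 0.00659 by limma). NQO1, the NAD(P)H quinone reductase and a standard marker of NRF2 activity, went from 26.7, 23.4 and 22.9 to 33.6, 31.7 and 32.4 FPKM without overlap (0.42, SE 0.07, adjusted p = 0.0543 by limma and 0.00792 under the block, with the fold too small for a call). VAT1 had 0.24 (adjusted p = 0.193 by limma, 0.0410 with the block). TP53I3, a quinone reductase induced by p53, had -0.42 (adjusted p = 0.235 by limma, 0.0451 with the block). Both were under the fold threshold. In MOLM-13 cells 12 were tested and 0 called, 0 at an unadjusted p under 0.05, with a median of 0.04.

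Among 10 regulators of the electrophile response, 9 were tested in each line and 0 were called with JOA by limma. In THP-1 cells 1 had an unadjusted p under 0.05, the median was 0.07, and 2 were higher without overlap. MAFG, a small MAF partner of NRF2, had the highest log2 fold change there (0.16, adjusted p = 0.127 by limma), followed by KEAP1, the NRF2 inhibitor (0.13). NFE2L2 itself had 0.08 (adjusted p = 0.501 by limma). In MOLM-13 cells 0 had an unadjusted p under 0.05, the median was 0.04, and 1 was higher and 1 lower without overlap.

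Last came 12 electrophile response genes of other pathways. In THP-1 cells 11 of 12 had a positive log2 fold change (56.7% of all genes) and 9 were higher without overlap (14.6% of all genes). Of the 12, 10 had an unadjusted p under 0.05 (16.9% of all genes). The median was 0.41 against 0.02 for all genes. This list was chosen with earlier results of these data known, and it holds HMOX1, which the paper gave as higher in THP-1 cells. The shares therefore describe the list and are no test of enrichment. By limma 0 were called, and with the block 2 were, HMOX1, the heme oxygenase (1.24, adjusted p = 0.0805, and 0.00941 under the block), and OSGIN1 (1.14, adjusted p = 0.0698, and 0.00659 with the block). GCLC, the catalytic subunit of glutathione synthesis, was the one gene below 0 (-0.05). In MOLM-13 cells 10 of 12 were positive (52.4% of all genes), and 3 were higher without overlap (9.65% of all genes in either direction). An unadjusted p under 0.05 was seen for 3 (4.11% of all genes), 0 were called, and the median was 0.12. For the interaction of line and treatment, 0 genes of any of these 5 lists were called by limma, with or without the block. In list order, 0, 1, 1, 0 and 3 genes had an unadjusted p under 0.05 (7.24% of all genes). With the block the counts were 2, 2, 3, 0 and 7 (1883 of all 12626 genes). The interaction of the 12 electrophile response genes ran from 0.03 to 0.94, with a median of 0.27 against 0.02 for all genes. Of the 10 myeloid and monocytic markers, 5 were higher with JOA without overlap in THP-1 cells (14.6% of all genes). A positive log2 fold change was seen for 6 (56.7% of all genes) and a negative one for 4. By limma 0 of the 10 were called (4 at an unadjusted p under 0.05, against 16.9% of all genes). With the block ITGAM was called higher (log2 fold change 0.71, adjusted p = 0.103 by limma, 0.0348 under the block) and MPO lower (-0.64, adjusted p = 0.399 by limma, 0.00659 under the block). Their part in the enzyme values was not tested.

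**Figure D5:**
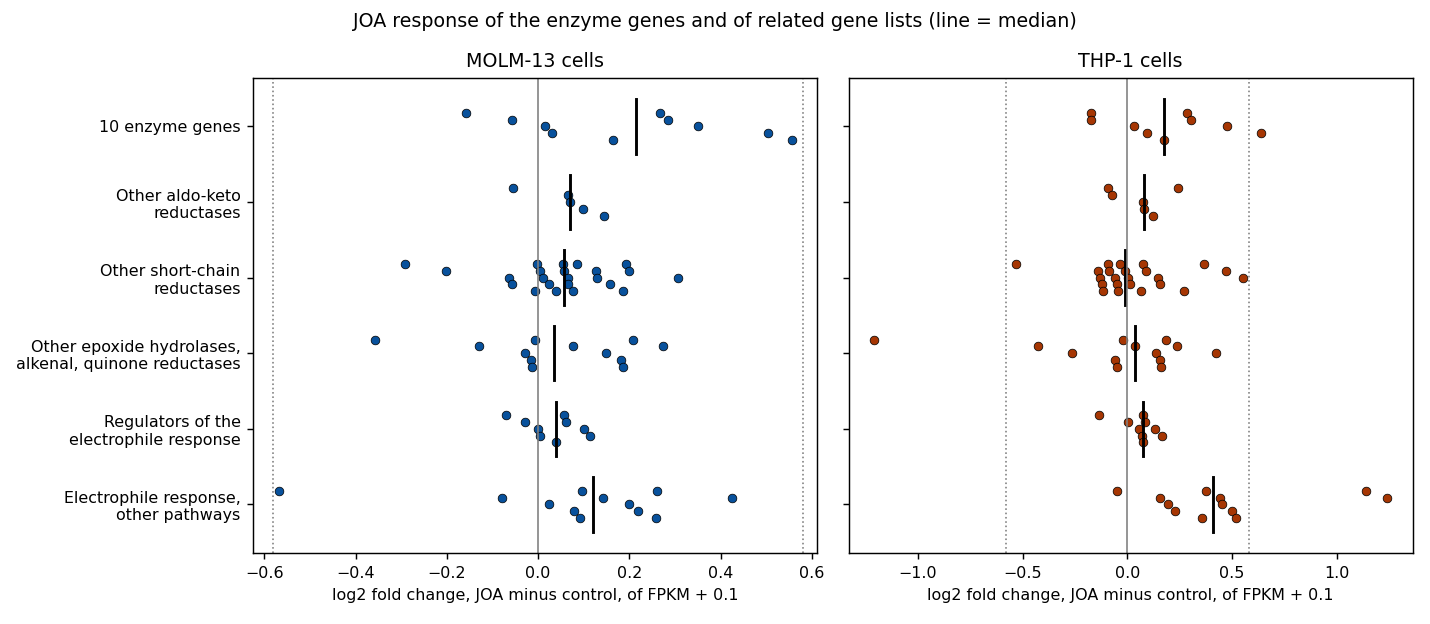
Log2 fold change of FPKM + 0.1 with JOA (x axis) of each tested gene, 1 point per gene, for the enzyme genes and 5 lists of related genes (rows), in MOLM-13 cells on the left and THP-1 cells on the right, whose x axes differ. Vertical bars mark medians and dotted lines a log2 fold change of 0.58, and in THP-1 cells the electrophile response list has the highest median (0.41), against 0.17 for the enzyme genes.

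Between the control cells of the lines, the related lists were counted in the same way by limma. Of all genes, 25.0% were called higher and 19.0% lower in THP-1 cells, and the called genes of each list stand beside these shares. Of the 6 other aldo-keto reductases tested, AKR1E2 was higher (log2 fold change 1.34) and AKR7A3 (-3.69), AKR7L (-1.95) and KCNAB3 (-1.07) were lower. AKR1E2 had a mean of 0.0763 FPKM in MOLM-13 and 0.347 FPKM in THP-1 control cells. It therefore passed the filter of 0.1 FPKM only through THP-1 cells. Of the 23 short-chain enzymes, DHRS13 and HSD11B1 (3.43) were higher and 9 were lower, namely DHRS1, DHRS4, DHRS4L2, DHRS7, DHRS7B, HSD17B8 (-2.73), RDH10, RDH14 and SPR. Of the 13 epoxide hydrolases, alkenal and quinone reductases, VAT1, TP53I3 (2.22), NQO1 (1.97) and EPHX4 were higher and PTGR2 and CRYZL1 were lower. EPHX4 was listed at 0 in 2 of the 3 MOLM-13 control libraries and had 0.979, 1.71 and 0.755 FPKM in THP-1 control cells. EPHX4 too passed the filter only through THP-1 cells. Of the 9 regulators, NFE2L1 and MAFG were higher and MAFF was lower, while NFE2L2 had 0.43 (adjusted p = 0.00017, limma), below the fold threshold. Of the 12 electrophile response genes, GCLM, ME1 and OSGIN1 were higher and 0 were lower. The medians were -0.64, -0.45, -0.30, 0.24 and 0.14 in this order, against 0.62 for the 9 members and 0.06 for all genes. Without overlap, 1 and 3, 4 and 13, 4 and 6, 6 and 2, and 4 and 2 genes were higher and lower in these lists, where 40.7% and 34.1% of all genes were.

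For the 6 members with a mean of at least 1 FPKM, the genes most like them over the 12 libraries were found by Pearson correlation of log2 values after each line's mean was subtracted, among 9239 or 9240 other genes. The libraries share their line, treatment and replicate number, so the values are descriptions. AKR1C1 was nearest to SLC36A1 (r = 0.884), MTIF3 (0.878) and PEX19 (0.874). EPHX1 was nearest to DEF6 (0.957), HAGHL (0.954) and GLT8D1 (0.950), and CBR1 to FN3KRP (0.958), NMT1 (0.945) and ABT1 (0.941). PTGR1 was nearest to SNX4 (0.951), DCAF6 (0.933) and IDH1 (0.913). AKR1A1 was nearest to UHRF1 (0.857), LGALS1 (0.806) and AP1M1 (0.800).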

How the data were processed

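Poly(A) RNA of 12 samples was sequenced by the authors as stranded paired-end libraries with reads of 150 bases. What the authors deposited is 1 table of FPKM with a column per library. Per the labels, their processing notes name Trimmomatic, HISAT2, Cufflinks, HTSeq and hg38, without roles or versions, and no further scaling is stated. FPKM divides by mapped fragments and length, so a few abundant genes can shift all others.

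The values were used as deposited. Genes with a mean of at least 0.1 FPKM over the libraries compared were kept, log2(FPKM + 0.1) was taken, and groups were compared with limma 3.58.1 in R 4.3.3 (lmFit, eBayes with a mean-variance trend, two-sided, Benjamini-Hochberg). The thresholds for a call were those of the authors, an adjusted p under 0.05 and a log2 fold change of 0.58 or more in size. The interaction was called on the adjusted p alone. The authors tested with DESeq, which needs counts and which FPKM values do not allow, so the number of calls here is not comparable with theirs. At the same thresholds the paper reported changed genes in both lines, more of them in THP-1 cells. ITGAM and HMOX1 were among the genes it gave as higher with JOA in THP-1 cells. The procedure was tested on simulated data. Low values did not allow whole reads to be recovered for the members, so no counting interval is given. With 3 libraries against 3, an exact permutation test cannot go below p = 0.1, so none was used.

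Control and JOA libraries share replicate numbers in the labels. The deviations of same-numbered libraries from their group means correlated with r of 0.407 to 0.580 in MOLM-13 and 0.297 to 0.541 in THP-1 cells, against -0.389 to 0.0676 and -0.439 to -0.0560 for other pairs. The numbers were therefore read as pairing control and JOA libraries. The main fit was nevertheless made without the block, because the authors' methods name no pairing. Calls, intervals and adjusted p-values with JOA that are not marked as blocked ignore the pairing. Values with the replicate block are given where they change a call, and also for some named genes whose call they do not change. The members and lists were chosen with earlier results of these data known. The text names all 10 members and, of each list, the called genes and up to 2 highest and 2 lowest in THP-1 cells among genes with a mean of at least 1 FPKM. The genes nearest in pattern to AKR1B1 and 1 erythroid marker are not reported here. ITGAM, MPO, CD3D, NFE2L2 and the genes overlapping a member were added after their values were seen. Alternatives covered pseudocount, filter, scaling, trend, block, threshold, 1 fit on all libraries, summed AKR1C rows and each library left out.

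Positions and coding sequences came from GENCODE release 29 on GRCh38, which the notes' hg38 matches by name, and promoter windows from RefSeq (GRCh38.p14). Alignments used Biopython 1.88 in Python 3.11.15.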

Additional observations from a re-analysis of the deposited data

How the results depend on the processing

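No member was called with JOA in MOLM-13 cells, or for the interaction, under any alternative. In THP-1 cells 1 member, AKR1C1, was called with the replicate block (161 genes in all) and on the unadjusted p (241 genes), and 0 under the others. With 1 replicate number left out of both groups under the block, an alternative chosen after seeing the data, 162, 207 and 222 genes and again 1 member were called. The blocked fit changed no other call of a member. Without the block, the count of all genes called in THP-1 cells was 17, and it was 8 with a pseudocount of 1 FPKM, 0 with no filter, 1 without the trend, 56 in 1 fit on all 12 libraries, and 0 to 1 with 1 library left out. In MOLM-13 cells the count of 0 became 1 with no filter, 56 on the unadjusted p and 1 in the joint fit. For the interaction, it became 1 with a pseudocount of 1 FPKM, 3 with no filter, 6 with the block and 914 on the unadjusted p. The cause of these shifts was not tested, apart from the unadjusted p, which is a looser threshold. Between the control cells of the lines 5 to 8 members were called with 1 library left out. There AKR1C2 also lost its call with a pseudocount of 1 FPKM (0.29), and AKR1C3 gained one on the unadjusted p. For this comparison the replicate numbers correlated with r of only 0.0757 to 0.180, so they are not read as pairs, and the block moved the 5559 calls to 5593 and left the 7 members called.

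Some log2 fold changes turned sign. In THP-1 cells AKR1A1 was -0.0040 after rescaling to equal medians and ran from -0.023 to 0.088 with 1 library left out, and AKR1C3 ran from -0.57 to 0.11. In MOLM-13 cells the ranges were -0.026 to 0.058 for AKR1A1, -0.092 to 0.0012 for AKR1B1, -0.38 to 0.11 for AKR1C3 and -0.031 to 0.12 for CBR1. For the interaction they were -0.039 to 0.072 for AKR1A1, -0.19 to 0.16 for AKR1C2, -0.41 to 0.27 for AKR1C3 and -0.15 to 0.065 for PTGR1. The interaction also turned at a pseudocount of 1 FPKM for AKR1C2 (0.025), AKR1C3 (0.034) and CBR3 (0.031), for AKR1A1 after rescaling to equal medians (-0.0071) and for AKR1C2 after rescaling to equal library sums (0.026). Under the block without 1 replicate number, AKR1A1 was -0.032 and -0.0046, CBR1 -0.0029 and AKR1C3 0.21 in MOLM-13 cells, and AKR1A1 was -0.0035, AKR1C3 0.31 and CBR3 -0.018 in THP-1 cells. Depth is unknown, and members under 1 FPKM had the widest intervals.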
